A study of Mus musculus with 6 samples.

Results

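Keratin-associated proteins form the matrix in which the keratin filaments of the hair shaft are embedded, and their mouse genes carry the symbol Krtap. Of 39429 non-control probes on the array, 66 carried a gene name that starts with Krtap, for 53 gene names. The members described here are the 64 of these probes, for 51 names, that the scanner called well above background on 3 or more of 6 arrays, a condition met by 29602 probes in all. Of the members, 62 probes for 50 names were well above background on all 6 arrays, and the counts and medians given here cover those 62. The current RefSeq symbol was used for each probe. It differed from the array's own name for 10 members, so that the array's Krtap16-8 is given as Krtap6-5, Krtap8-2 as Krtap19-5, and Krtap16-9, 16-1, 16-5 and 16-4 as Krtap19-1, 19-2, 19-3 and 19-4.

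Ear skin of 6 mice gave the total RNA for the arrays, with 1 array and no pooling stated for each mouse. The 3 wild-type (WT) mice, numbered 1, 2 and 3 in the labels, had NC16A, a segment of BP180. It was missing in the 3 knockout (KO) mice, numbered 1, 2 and 7. BP180 is collagen XVII, a transmembrane protein that ties basal keratinocytes to the basement membrane, and NC16A is the stretch of it just outside the cell. Age and sex were matched between the mice, but the labels leave out which these were, the strain, the allele and the cells in which it is deleted. The series is about inflammation that arises in the skin of such mice. The comparison here asks how the hair shaft matrix genes differ between ear skin with and without the segment.

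The scanner called 72.6% to 78.2% of an array's spots well above background, and no spot was saturated. The 75th percentile of the signal lay between 5556 and 7056 intensity units on the WT arrays and between 4051 and 4708 on the KO arrays. Values are therefore given as log2 signal relative to the array's own 75th percentile. All WT arrays and the KO 1 array shared slide 1, whereas KO 2 and KO 7 shared another slide. The only Col17a1 probe, for the gene of BP180, gave 4.32, 4.31 and 4.38 in WT 1, 2 and 3 against 4.39, 4.22 and 4.01 in KO 1, 2 and 7. The labels do not say how far the deletion reaches, so this probe checks no label. All 8 epidermal markers examined (Krt5, Krt14, Krt1, Krt10, Krt2, Lor, Flg and Ivl) were well above background on every array.

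Keratin-associated proteins are made in the upper matrix and the shaft of growing hair follicles, after the hair keratins have begun to accumulate. The sulfur-rich type carries many cysteines, which form disulfide bonds with the keratins and make the fibre hard. The other type is rich in glycine and tyrosine and is known from the cortex of the shaft. Subfamilies are numbered, and the genes of a subfamily often lie near each other in the genome, at times with genes of other subfamilies between them. By the subfamily number of the current symbol, 38 of the 62 probes were of the sulfur-rich type (subfamilies 1 to 5, 9 to 15, 17, 24 and 26 here) and 19 of the glycine-tyrosine type (subfamilies 6, 7, 8, 19, 20, 21 and 22). The other 5, of subfamilies 16, 28 and 31, were left untyped because no protein sequences were used here.

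The composition of both types can be read directly from the probes. The sequences shown are the array's 60-base probes that lie in a repeat-rich reading frame. In the first 4, capitals mark the cysteine codons (TGT and TGC), and in the last 4 they mark the glycine and tyrosine codons (GGN, TAT and TAC).
Krtap5-5: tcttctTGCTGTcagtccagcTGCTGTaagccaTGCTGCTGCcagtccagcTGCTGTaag
Krtap5-1: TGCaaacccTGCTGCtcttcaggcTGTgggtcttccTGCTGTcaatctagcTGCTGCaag
Krtap4-16: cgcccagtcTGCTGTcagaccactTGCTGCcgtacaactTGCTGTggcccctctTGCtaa
Krtap4-8: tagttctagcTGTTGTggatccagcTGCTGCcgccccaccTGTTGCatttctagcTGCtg
Krtap20-2: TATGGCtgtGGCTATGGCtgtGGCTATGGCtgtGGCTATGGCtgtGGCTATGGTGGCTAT
Krtap6-1: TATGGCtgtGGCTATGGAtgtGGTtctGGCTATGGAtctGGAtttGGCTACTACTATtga
Krtap19-2: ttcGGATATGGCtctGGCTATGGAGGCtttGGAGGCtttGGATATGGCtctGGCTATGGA
Krtap8-1: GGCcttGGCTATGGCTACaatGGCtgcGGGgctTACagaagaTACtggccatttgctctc
The Krtap5-5 probe has 9 cysteine codons among its 20 codons, and the Krtap20-2 probe has 16 glycine or tyrosine codons among 20. Such a reading frame was found in 12 sulfur-rich and 11 glycine-tyrosine probes, and in the probe of Krtap16-3, which is untyped here and whose frame held glycine and tyrosine codons. The other probes lie outside such repeats or in stretches with few of these codons.

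Krtap genes were higher in KO ear skin, on nearly every probe and by a large factor. Of the 62 probes, 56 rose, 0 fell and 6 did not pass (limma, Benjamini-Hochberg adjusted p under 0.05), against 1.61% of all 27254 probes well above background on all 6 arrays that rose and 0.316% that fell. The median KO minus WT difference was 3.76 on the log2 scale, a 13.5-fold difference, with a range from -0.37 to 5.32. Over all 27254 probes the median difference was 0.031. At an unadjusted p under 0.05, 0 of the 62 were lower in KO, as 10.8% of all kept probes were. Over all 29602 kept probes 520 (1.76%) rose and 0.361% fell, so that 82.9% of the calls were higher. Scaling by the array median instead shifted the median of all probes by -0.13 and gave 441 and 174 (71.7% higher), and the same number of the 62 Krtap probes, 61, lay above 0. The KO values lay wholly above the WT values for 60 of the 62 probes, as they did for 20.3% of all probes. A difference of at least 2 was seen in 55 of the 62, against 1.22% of all. The adjusted p of the 56 lay between 0.0018 and 0.028, and their fold between 3.09 and 39.99. With 1 probe per gene, 45 of 50 genes rose and the median was also 3.76. In whole skin, a larger number of cells that make these transcripts and more of the transcript in each such cell cannot be told apart. Each difference is given with its standard error (SE) from limma, for 3 mice per group. Nothing in the labels says whether the mice were littermates, and the probes are not independent of each other.

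**Figure D1:**
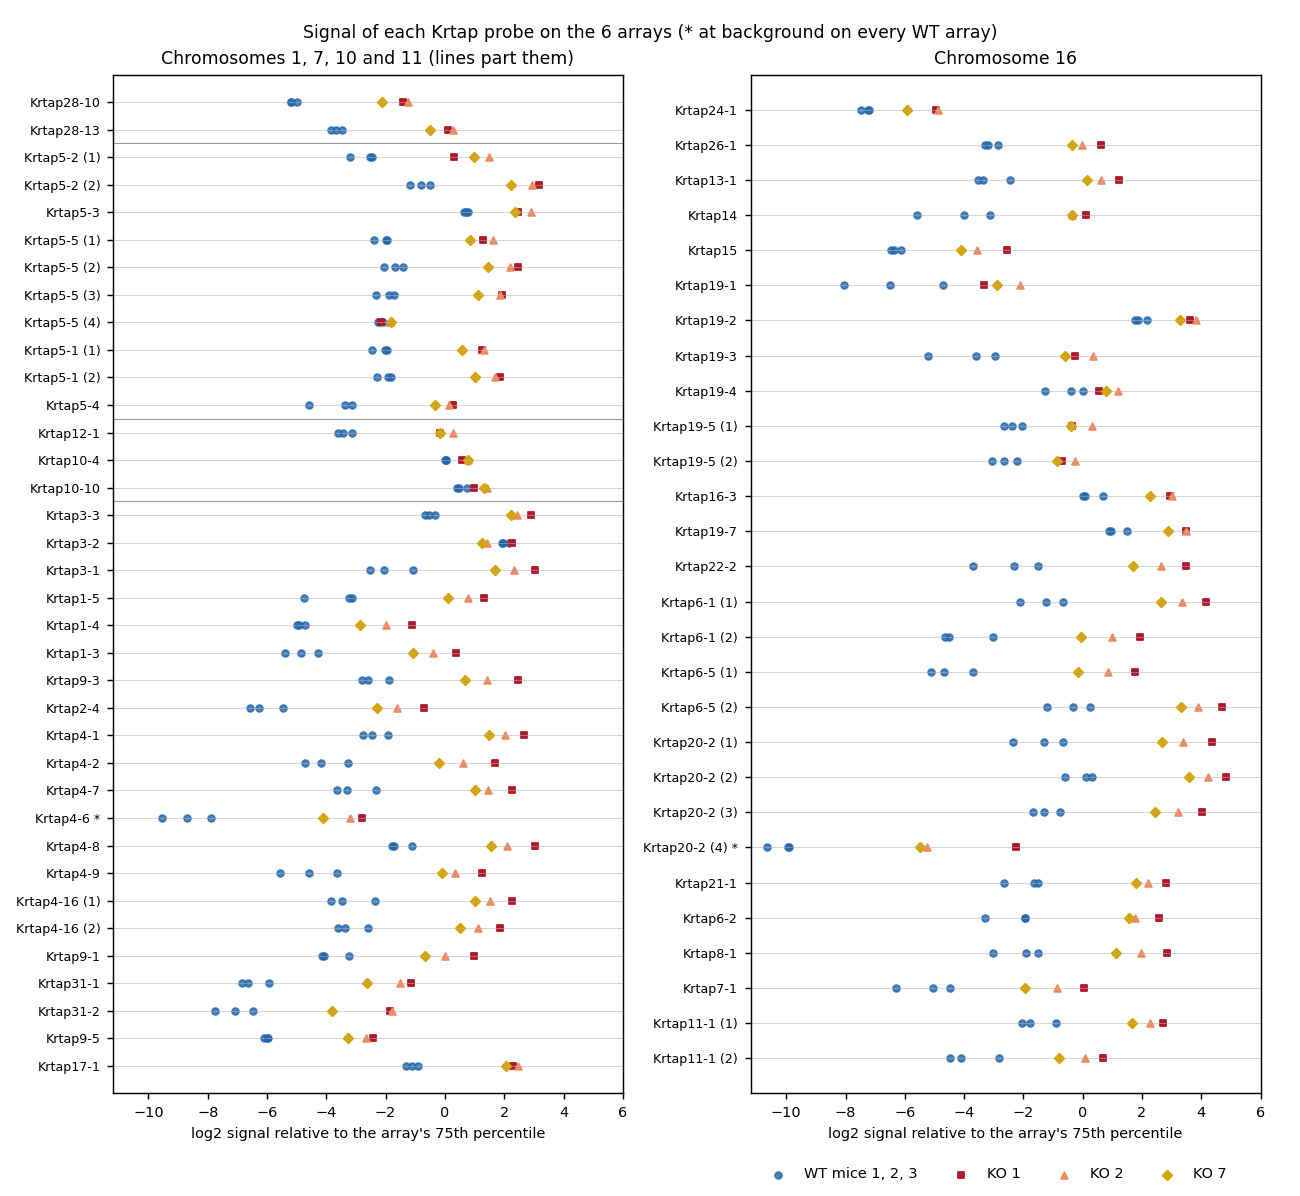
Log2 signal of the 64 Krtap probes relative to the 75th percentile of the array (x axis), with 1 row per probe in genome order within each chromosome, for WT mice 1, 2 and 3 (blue circles) and KO mice 1, 2 and 7 (square, triangle and diamond). The KO symbols lie to the right of all WT circles in every row except those of Krtap3-2 and of 1 of the 4 Krtap5-5 probes, and an asterisk marks the 2 probes at background on every WT array.

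The largest block of sulfur-rich genes lies on chromosome 11, where 19 of 20 probes rose. Their median difference was 4.39, or 4.44 without Krtap3-2, and the 19 that rose ranged from 2.88 to 5.09. Subfamily 4 is cysteine-rich, and all 7 of its probes well above background on all arrays rose, with a median of 4.66. Krtap4-9 (probe at chr11:99647499-99647558 of mm9) had log2 signals of -4.60, -5.55 and -3.64 in WT 1, 2 and 3 against 1.25, 0.33 and -0.11 in KO 1, 2 and 7. All KO arrays were thus far above all WT arrays, and the difference of 5.09 ± 0.54 was 34-fold (adjusted p = 0.0074). The Krtap4-16 probe at chr11:99712060-99712119 gave -3.48, -3.84 and -2.37 in the WT mice and 2.27, 1.503 and 1.02 in the KO mice, a difference of 4.83 ± 0.46 (adjusted p = 0.005). Krtap4-2 (chr11:99495515-99495574) gave -4.19, -4.73 and -3.28 in WT 1, 2 and 3 against 1.70, 0.62 and -0.19 in KO 1, 2 and 7, a difference of 4.77 ± 0.54 (adjusted p = 0.0094). In each of these genes KO 1 was the highest array and KO 7 the lowest of the KO arrays.

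Subfamilies 1, 2, 9 and 17 of the same block also rose on every probe, although without WT 2 only 1 of the 3 subfamily 9 probes passed. The 3 probes of subfamily 1 had a median of 4.44, and Krtap2-4, the only member of subfamily 2 measured, differed by 4.57 ± 0.45. The smallest rise on chromosome 11 was in Krtap1-4 (chr11:99444863-99444922), with -4.98, -4.91 and -4.71 in the WT mice and -1.11, -1.996 and -2.85 in the KO mice. Its WT values were tight and its KO values spread over more than a log2 unit, and the difference of 2.88 ± 0.41 (adjusted p = 0.022) lost the call when any WT mouse or KO 2 was left out (highest adjusted p = 0.097). Krtap17-1 differed by 3.39 ± 0.17 and Krtap9-5 by 3.24 ± 0.22, both with an adjusted p of 0.0018. The untyped Krtap31-1 and Krtap31-2, whose genes lie in the same block, differed by 4.70 ± 0.42 and 4.62 ± 0.60. Krtap31-2 did not pass with slide as a block (adjusted p = 0.099), nor when WT 1, WT 2 or KO 2 was left out (adjusted p up to 0.077).

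Subfamily 3 was the exception, since the probes of its 3 neighbouring genes did not move together. Krtap3-1 (chr11:99427397-99427456) gave -2.52, -2.05 and -1.07 in WT 1, 2 and 3 against 3.02, 2.31 and 1.68 in KO 1, 2 and 7, a difference of 4.22 ± 0.46 (adjusted p = 0.0081). Krtap3-3 (chr11:99411448-99411507) gave -0.66, -0.53 and -0.35 and 2.92, 2.43 and 2.21, a difference of 3.03 ± 0.21 (adjusted p = 0.0018). Krtap3-2 lies between them (chr11:99417555-99417614), and its signal was 1.97, 2.17 and 1.92 in the WT mice and 2.27, 1.43 and 1.24 in the KO mice. KO 1 was above all WT arrays of Krtap3-2, and KO 2 and KO 7 were below them. The Krtap3-2 difference was -0.37 ± 0.28 (adjusted p = 0.40), and its 95% confidence interval reached from -1.03 to 0.28. For KO 1 against the 3 WT arrays on its slide it was 0.25. What the only Krtap3-2 probe reads was not tested.

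On chromosome 7, 9 of the 10 probes of subfamily 5 rose, with a median of 3.57. This subfamily is the most cysteine-rich and is known from the cuticle of the hair. Krtap5-5 was read by 4 probes, of which 3 differed by 3.37 ± 0.23, 3.75 ± 0.29 and 3.60 ± 0.27. At chr7:149415298-149415357 its signal was -2.06, -1.69 and -1.41 in WT 1, 2 and 3 against 2.45, 2.19 and 1.46 in KO 1, 2 and 7. The fourth Krtap5-5 probe, at chr7:149415808-149415867, gave -2.22, -2.10 and -2.28 in the WT mice and -2.17, -1.85 and -1.82 in the KO mice. On that probe the groups overlapped, and the difference of 0.25 ± 0.15 (95% confidence interval from -0.11 to 0.61) did not pass (adjusted p = 0.31). Its frame holds 2 cysteine codons, against 9 in each of the other 3 probes, and what it reads was not tested.

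Among the other chromosome 7 genes, Krtap5-4 (chr7:149490349-149490408) gave -4.60, -3.38 and -3.14 in the WT mice and 0.27, 0.15 and -0.33 in the KO mice. The Krtap5-4 difference was 3.74 ± 0.39 (adjusted p = 0.0073). The Krtap5-2 probe at chr7:149360485-149360543 gave -3.20, -2.53 and -2.47 and 0.31, 1.49 and 0.97, a difference of 3.66 ± 0.34 (adjusted p = 0.0048). It is among the probes on which KO 2 and not KO 1 was the highest array. A Krtap5-1 probe (chr7:149482567-149482626) gave -2.46, -1.96 and -2.04 in the WT mice and 1.25, 1.32 and 0.58 in the KO mice, a difference of 3.20 ± 0.25 (adjusted p = 0.0026), and the other differed by 3.53 ± 0.25. The rise was smaller in Krtap5-3 (chr7:149387633-149387692), from 0.63, 0.76 and 0.70 in the WT mice to 2.46, 2.91 and 2.35 in the KO mice. The Krtap5-3 groups were well apart and each tight, with a difference of 1.88 ± 0.18, or 3.68-fold (adjusted p = 0.005). With slide as a block, Krtap5-3 and Krtap5-4 did not pass (adjusted p = 0.074 and 0.073).

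Chromosome 10 held 3 measured members, and 1 of them rose. Krtap12-1 (chr10:77183942-77184001) gave -3.43, -3.62 and -3.13 in WT 1, 2 and 3 against -0.15, 0.26 and -0.17 in KO 1, 2 and 7, a difference of 3.38 ± 0.19 (adjusted p = 0.0018). The 2 measured members of subfamily 10 lie further along the chromosome. Krtap10-4 (chr10:77288970-77289029) gave 0.039, 0.038 and -0.0021 in the WT mice and 0.56, 0.79 and 0.77 in the KO mice. Krtap10-10 (chr10:77299937-77299996) gave 0.74, 0.42 and 0.47 in the WT mice and 0.99, 1.43 and 1.32 in the KO mice. In both genes all KO arrays were above all WT arrays, but by less than a log2 unit, and the differences of 0.68 ± 0.13 (adjusted p = 0.053) and 0.70 ± 0.17 (adjusted p = 0.085) did not pass. Krtap10-4 passed in 1 of the 6 fits without 1 mouse, the one without KO 1.

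On chromosome 1 both measured genes of the untyped subfamily 28 rose. Krtap28-13 (chr1:83058143-83058202) gave -3.83, -3.67 and -3.46 in the WT mice and 0.11, 0.28 and -0.50 in the KO mice, a difference of 3.62 ± 0.23. Krtap28-10 (chr1:83038183-83038242) gave -5.20, -4.99 and -5.20 and -1.42, -1.24 and -2.14, a difference of 3.53 ± 0.25. Each had an adjusted p of 0.0018, and in each KO 7 was the lowest of the KO arrays.

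Chromosome 16 carries all of the glycine-tyrosine members, with sulfur-rich genes on both sides of them. The 7 sulfur-rich probes there, of Krtap24-1, Krtap26-1, Krtap13-1, Krtap14, Krtap15 and Krtap11-1, all rose, with a median of 3.77 and a range from 2.05 to 4.03. Of these 7, 4 passed with slide as a block, 4 without WT 1, and 3 without WT 2 or without KO 2. Over both flanks and the genes between them, 25 of 27 probes on the chromosome rose, against 14 with slide as a block, 16 without WT 3 and 15 without KO 2. Of the 19 glycine-tyrosine probes, 17 rose and the median was 4.27, against 34 of 38 and 3.70 for the sulfur-rich type. Of the 19 and the 38, 10 and 28 passed with slide as a block. Without WT 3 the counts were 10 and 31, and without KO 2 they were 11 and 28. Over all kept probes 520 rose with all mice, 183 with slide as a block, and 208 to 892 with 1 mouse left out. The ranges of the types overlapped, from 1.40 to 5.32 and from -0.37 to 5.09, and the difference between the types was not tested.

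**Figure D2:**
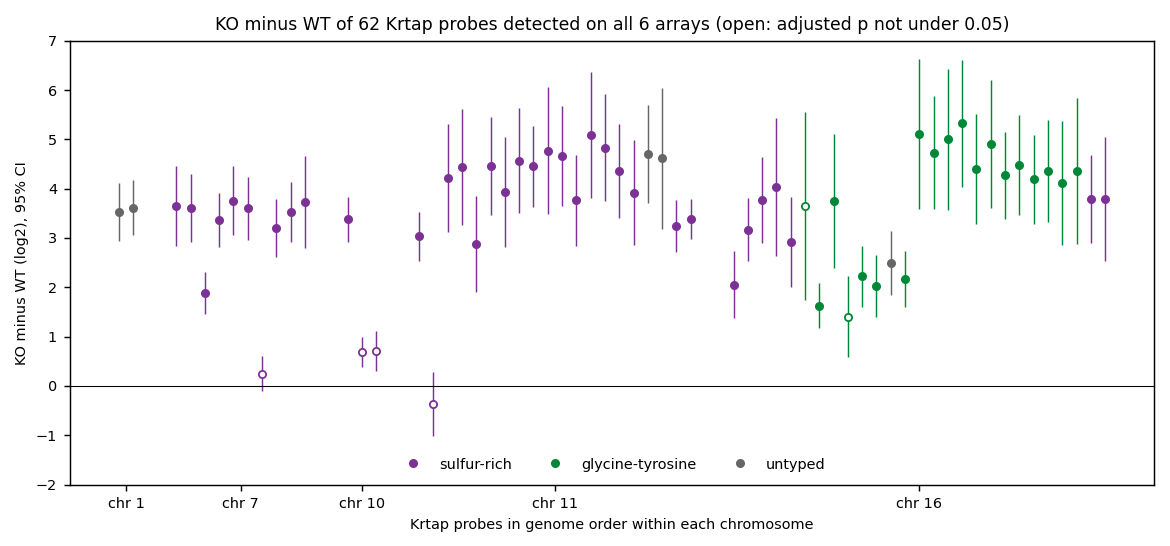
KO minus WT difference in log2 signal (y axis) of the 62 Krtap probes well above background on all 6 arrays, in genome order within chromosomes 1, 7, 10, 11 and 16 (x axis), with 95% confidence intervals of the limma fit. Open circles did not pass at an adjusted p under 0.05, and colours mark the sulfur-rich, glycine-tyrosine and untyped probes. On chromosome 16 the probes of subfamilies 19 and 16 sit lower, around their median of 2.20, than the neighbouring glycine-tyrosine probes around 4.44.

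The glycine-tyrosine genes fell into 2 neighbouring stretches with different sizes of rise. In the stretch of subfamilies 6, 7, 8, 20, 21 and 22, all 12 probes rose, with a median of 4.44 and a range from 4.12 to 5.32. The largest fitted rise was in Krtap6-5 (chr16:89047693-89047752), with -5.12, -3.71 and -4.69 in WT 1, 2 and 3 against 1.75, 0.85 and -0.15 in KO 1, 2 and 7. Its lowest KO array lay more than 3 log2 units above its highest WT array, and the difference of 5.32 ± 0.54 was 39.99-fold (adjusted p = 0.0066). Krtap22-2 (chr16:89010727-89010786) gave -3.69, -1.50 and -2.33 in the WT mice and 3.47, 2.63 and 1.71 in the KO mice, a difference of 5.11 ± 0.64 (adjusted p = 0.014). The Krtap6-1 probe at chr16:89032459-89032518 gave -4.50, -3.04 and -4.63 in the WT mice and 1.92, 0.97 and -0.052 in the KO mice, a difference of 5.004 ± 0.60 (adjusted p = 0.011). The WT values of these genes spread over more than a log2 unit, and neither Krtap22-2 nor this Krtap6-1 probe passed once WT 3 or KO 2 was left out (highest adjusted p = 0.062 and 0.057). With slide as a block, Krtap22-2 did not pass (adjusted p = 0.061).

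The stretch of subfamily 19 with Krtap16-3, a gene that lies between its members, had smaller rises. Of its 8 probes, 6 rose (2 without WT 3), with a median of 2.20 and a range from 1.40 to 3.75. Krtap19-9b, a gene of the same subfamily and chromosome whose array name kept it outside the rule, differed by 4.32 and 4.29 on its 2 probes, above that range. Krtap19-2 (chr16:88874321-88874380) gave 1.88, 2.18 and 1.76 in WT 1, 2 and 3 against 3.61, 3.82 and 3.28 in KO 1, 2 and 7, a difference of 1.63 ± 0.19, or 3.09-fold (adjusted p = 0.011). The Krtap19-5 probe at chr16:88896479-88896538 gave -3.07, -2.20 and -2.65 and -0.71, -0.28 and -0.86, a difference of 2.02 ± 0.26 (adjusted p = 0.016). Krtap19-4 (chr16:88885057-88885116) gave -1.28, -0.0067 and -0.41 in the WT mice and 0.54, 1.17 and 0.80 in the KO mice. Its KO arrays were all above its WT arrays, but WT 1 lay far below the other WT arrays, and the difference of 1.40 ± 0.34 did not pass (adjusted p = 0.084). Krtap19-1 (chr16:88869163-88869222) gave -8.05, -4.71 and -6.49 in the WT mice and -3.33, -2.12 and -2.88 in the KO mice. With more than 3 log2 units between its WT arrays, the Krtap19-1 difference of 3.64 ± 0.80 did not pass either (adjusted p = 0.071). None of the 8 probes passed with slide as a block (limma), although their median within slide 1 was 2.18, close to that over all mice. Krtap19-2 did not pass without WT 3, nor this Krtap19-5 probe without WT 3 or without KO 2. The difference between the stretches was not tested.

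A further 2 members were well above background only on the KO arrays, so that only a bound can be given for them. Krtap4-6 (chr11:99526357-99526416) gave -2.79, -3.21 and -4.11 in KO 1, 2 and 7 and was at least 23.7-fold higher in KO. A probe of Krtap20-2 (chr16:89206580-89206639) gave -2.25, -5.26 and -5.47 and was at least 12.2-fold higher. These bounds set the KO mean against the lowest signal well above background on each WT array. Both had to differ between the groups to meet the rule, so they are left out of the counts and no test is given for them. No array had the probes for Krtap13 and Krtap6-3 well above background, and they are the only Krtap probes that failed the rule.

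Where a gene had several probes, the probes mostly moved by like amounts. The 3 other Krtap20-2 probes differed by 4.91 ± 0.54, 4.27 ± 0.37 and 4.48 ± 0.43, and the 2 Krtap11-1 probes by 3.78 ± 0.38 and 3.79 ± 0.53. By their positions, neighbours among these 3 Krtap20-2 probes overlap, as do 2 of the Krtap5-5 probes, so they are not separate readings of the gene. The only gene whose probes differed in call was Krtap5-5. Some probes of different genes are alike in sequence, and whether hybridisation tells them apart was not tested. The repeat probes of Krtap6-1 and Krtap6-5 share 57 of their 60 bases, and capitals mark the 3 that differ.
Krtap6-1: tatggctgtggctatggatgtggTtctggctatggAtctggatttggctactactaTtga
Krtap6-5: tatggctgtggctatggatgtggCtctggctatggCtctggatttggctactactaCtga
These 2 probes differed by 4.73 ± 0.48 and 4.40 ± 0.47 between the groups, and each gene's other probe, which shares no run of 16 bases with any other Krtap gene's probe, by 5.004 ± 0.60 and 5.32 ± 0.54. In all, 11 of the 62 probes shared a run of at least 16 bases with a probe of another Krtap gene. All 11 rose, with a median of 3.75, and of the 51 that shared no such run 45 rose, with a median of 3.77. Probes were compared with other probes and not with whole transcripts, so hybridisation to transcripts of other genes was not tested.

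The KO arrays differed in how high their Krtap signals were, with KO 1 above KO 2 and KO 2 above KO 7 on 41 of the 62 probes. No share over all probes is given for this order. KO 1 was on another slide than KO 2 and KO 7, so mouse and slide cannot be told apart in its rank. Relative to the WT mean, the median over the 62 probes reached 4.22 for KO 1, 3.87 for KO 2 and 3.23 for KO 7. KO 7 was the lowest KO array on 56 of the 62 probes and the highest on 1, while over all 27254 probes it was the highest on 12137 and the lowest on 9397. KO 1 was the highest array on 41 probes, including all 12 of the subfamily 6, 7, 8, 20, 21 and 22 stretch and 18 of 20 on chromosome 11. KO 2 was the highest on 20 probes, including all 8 of the subfamily 19 and 16 stretch, all 3 on chromosome 10 and both on chromosome 1. Over all 27254 probes, KO 1 was the highest KO array on 8246 and KO 2 on 6871. Among the WT mice, WT 1 was the lowest on 42 of 62 probes, for which no share over all probes is given either. The median SD over the 3 mice of a group was 0.48 in WT and 0.56 in KO, small beside the median difference of 3.76.

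**Figure D3:**
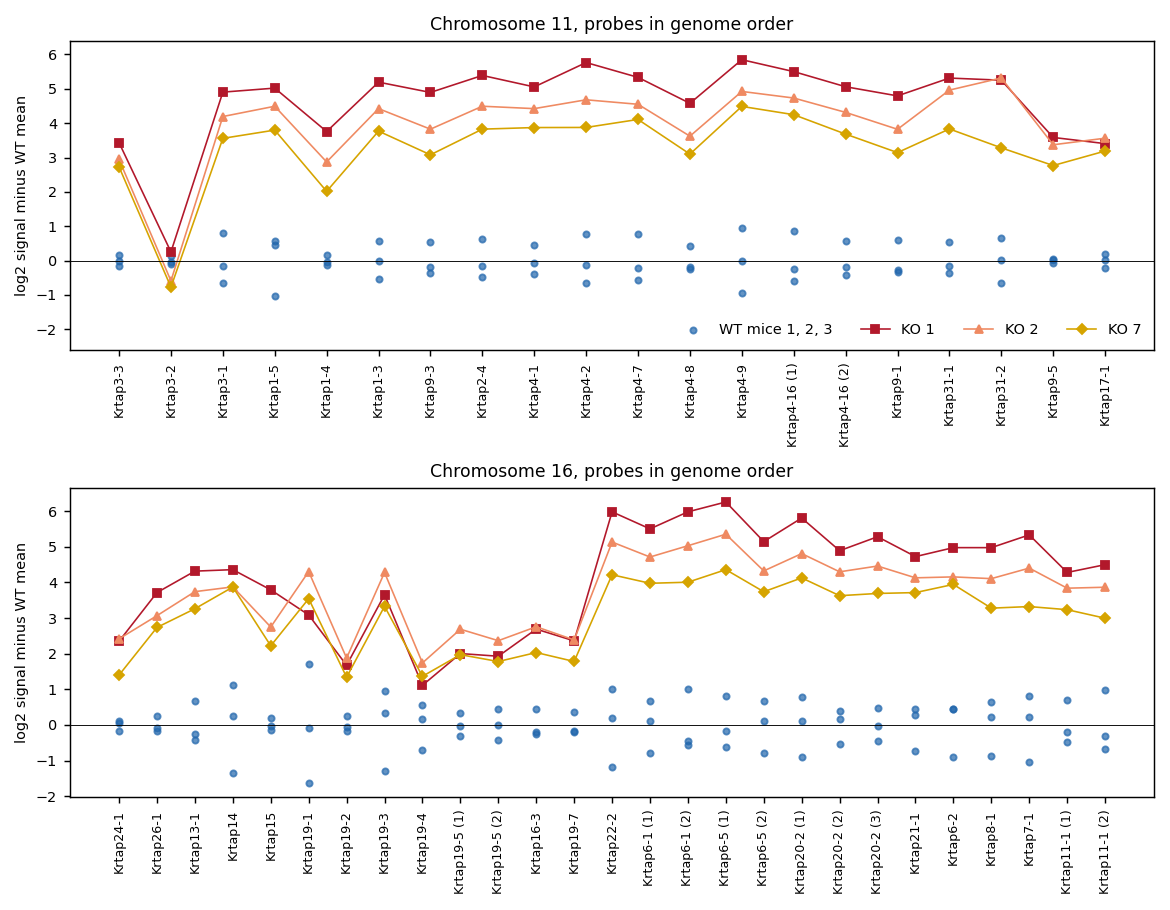
Log2 signal minus the mean of the WT mice (y axis) for the probes on chromosome 11 (top) and chromosome 16 (bottom) in genome order (x axis), with WT mice 1, 2 and 3 as blue circles and each KO mouse as a line. The line of KO 1 runs above those of KO 2 and KO 7 over most of chromosome 11 and over the 12 probes from Krtap22-2 to Krtap7-1, while KO 2 is the highest on the 8 probes from Krtap19-1 to Krtap19-7, and at Krtap3-2 the KO lines drop to 0.25, -0.59 and -0.77 for KO 1, 2 and 7.

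Since KO 1 was hybridised on the slide of the WT arrays, it gives a comparison within a slide, with a KO arm of 1 mouse. For KO 1 against the WT arrays the median of the 62 probes was 4.22, against a median of -0.018 over all 27254 probes. With slide as a block the fitted difference is this same one, because KO 2 and KO 7 are alone on their slide. The test then assumes that the lone KO mouse varies as the other mice do, and 41 of 62 probes rose, against 0.591% of all. The 15 probes that no longer passed included all 6 of the subfamily 19 and 16 stretch. Leaving out each mouse in turn, 40 of the 56 probes that rose passed in all 6 fits, and the 16 others lost the call in at least 1. Over all kept probes, 208 to 892 rose in these 6 fits, against 520 with all mice.

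RefSeq promoter sequences were matched for 44 of the 51 Krtap genes (GRCm38.p6). Since most Krtap genes rose together, the stretch just before their starts was searched for the TATA box, the motif that sets the start of transcription in many tissue-specific genes. The letters TATAAA occurred on the gene's strand within 250 bases before the start in 35 of the 44 (79.5%), against 7.59% of 32851 promoters of all genes. Within 50 bases they occurred in 28 of 44 (63.6%), against 2.63%. The median distance of the nearest match from the start was 31 bases, and 27 matches began 20 to 40 bases before it. The 3 neighbours of subfamily 3 are shown with the 100 bases before each start, since Krtap3-1 and Krtap3-3 rose and Krtap3-2 did not. Capitals mark TATAAA, and all 3 are on the minus strand, at chr11:99566631-99566730, chr11:99556854-99556953 and chr11:99550864-99550963 in that order.
Krtap3-1: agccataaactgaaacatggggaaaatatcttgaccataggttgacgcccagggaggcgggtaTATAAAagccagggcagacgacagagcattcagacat
Krtap3-2: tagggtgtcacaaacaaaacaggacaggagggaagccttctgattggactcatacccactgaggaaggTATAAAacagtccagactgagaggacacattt
Krtap3-3: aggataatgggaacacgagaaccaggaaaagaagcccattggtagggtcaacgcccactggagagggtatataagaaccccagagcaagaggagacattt
Krtap3-2, whose signal did not pass, thus holds TATAAA 32 bases before its start. Krtap3-3, which rose, lacks these exact letters and holds tatataag instead. Whether either run of letters bears on the rise was not tested.

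A variant, TATATAAG, was searched after the sequences had been seen. It occurred on the gene's strand within 250 bases before the start in 7 of the 44 Krtap promoters (15.9%), against 0.642% of all. All 7 were among the 9 promoters without TATAAA, and belong to Krtap14, Krtap15, Krtap19-1, Krtap19-2, Krtap19-3, Krtap19-4 and Krtap3-3. Of the subfamily 19 genes with a promoter entry, only Krtap19-5 held TATAAA. The 100 bases before Krtap6-5 and Krtap4-9, with 2 of the largest rises, and before Krtap19-2 and Krtap19-4, with 2 of the smallest on chromosome 16, are shown for comparison, with capitals on TATAAA. They lie at chr16:89047900-89047999, chr11:99785100-99785199 (plus strand), chr16:88874270-88874369 and chr16:88885090-88885189, the others on the minus strand.
Krtap6-5: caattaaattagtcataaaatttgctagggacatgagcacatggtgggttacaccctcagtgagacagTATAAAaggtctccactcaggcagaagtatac
Krtap4-9: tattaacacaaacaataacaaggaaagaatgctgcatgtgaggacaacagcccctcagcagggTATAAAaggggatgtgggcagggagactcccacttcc
Krtap19-2: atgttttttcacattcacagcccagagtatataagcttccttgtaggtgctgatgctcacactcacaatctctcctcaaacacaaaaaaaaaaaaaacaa
Krtap19-4: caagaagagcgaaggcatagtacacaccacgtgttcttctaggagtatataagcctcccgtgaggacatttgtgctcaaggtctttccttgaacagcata
The letters CTTTGA, the core of the motif that Lef1 and related factors bind, occurred on either strand in 10 of the 44 promoters (22.7%), against 13.8% of all, and within 50 bases in 0 of 44, against 2.23%. A match to these letters is a description and no evidence of binding.

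**Figure D4:**
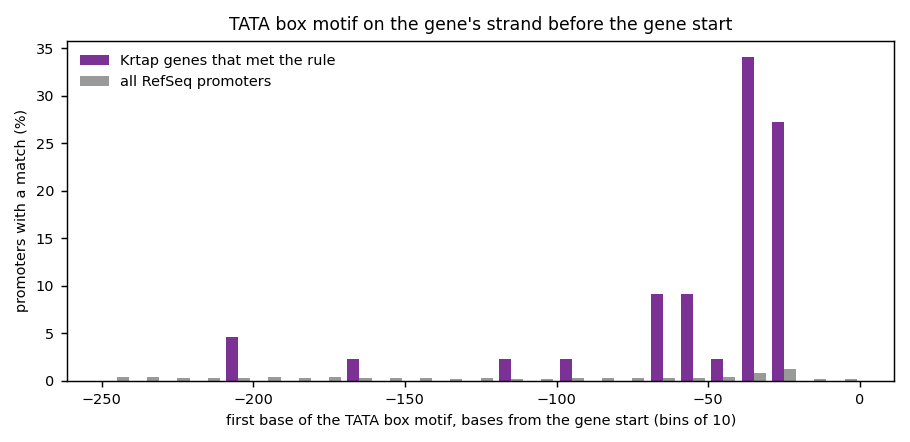
Share of promoters (y axis, percent) with a TATA box motif on the gene's strand that begins in each 10-base bin before the gene start (x axis, bases), for the 44 Krtap promoters (purple) and for all 32851 RefSeq promoters (grey). The Krtap bars stand at 34.1% and 27.3% in the 2 bins from 40 to 20 bases before the start, where all promoters stand at 0.767% and 1.23%.

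The keratins with which these proteins are cross-linked rose as well. Of 14 measured hair shaft keratin genes, 11 rose, 0 fell and 3 did not pass, with a median of 3.21. Krt84, a hair-type keratin, gave -1.86, -1.72 and -1.79 in WT 1, 2 and 3 against 1.93, 3.09 and 3.35 in KO 1, 2 and 7, a difference of 4.58 ± 0.36 (adjusted p = 0.0026). It was highest in KO 7, unlike nearly all Krtap probes. Krt35 differed by 3.09 ± 0.22, Krt82 by 3.20 ± 0.20 and Krt86 by 4.29 ± 0.38. The 3 that did not pass were Krt32 (2.11 ± 0.39, adjusted p = 0.053), Krt81 (1.14 ± 0.27, adjusted p = 0.082) and Krt85. Krt85, which is made early in the hair matrix, gave 2.79, 2.63 and 2.87 in the WT mice and 2.65, 2.94 and 2.37 in the KO mice, so that the groups overlapped, with a difference of -0.11 ± 0.18 (adjusted p = 0.71).

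A list of genes drawn up for cross-linking in the shaft and the inner root sheath rose in part. Of its 12 genes, 5 rose, 0 fell and 7 did not pass, with a median of 0.98. Which cells of the skin gave the signal of each gene was not tested. Tchhl1, which encodes a trichohyalin-like protein, differed by 4.84 ± 0.41, Padi3, which encodes an enzyme that citrullinates trichohyalin, by 4.30 ± 0.35, and trichohyalin itself (Tchh) by 3.55 ± 0.34. S100a3, a cysteine-rich calcium-binding protein of the hair cuticle, differed by 1.84 ± 0.18, and Padi1 by 1.32 ± 0.15. With slide as a block, S100a3 and Padi1 did not pass (adjusted p = 0.070 and 0.12). The transglutaminase genes Tgm1, Tgm3 and Tgm5 differed by 0.46, 0.66 and 0.052 and did not pass. Of 7 keratin genes of the inner root sheath, the layer that moulds the growing shaft, 6 rose, with a median of 3.95, and Krt72 (-0.25 ± 0.31) did not pass. With slide as a block 3 of the 6 passed.

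Regulators of the hair matrix differed by far less. Of 14 measured, 2 rose, 0 fell and 12 did not pass, and the median was 0.22. Hoxc13, a transcription factor known to activate hair keratin and Krtap genes, gave -2.77, -2.67 and -2.28 in the WT mice and -1.63, -1.62 and -1.54 in the KO mice, a difference of 0.98 ± 0.16 (adjusted p = 0.039). Lef1, a transcription factor of Wnt signalling, gave -3.20, -3.52 and -2.99 against -2.39, -2.04 and -1.89, a difference of 1.13 ± 0.20 (adjusted p = 0.046). In both genes all KO arrays were above all WT arrays, but each passed in only 1 of the 6 fits without 1 mouse and neither with slide as a block (adjusted p = 0.37 and 0.47), and the median of the list was then 0.070. Foxn1 (0.14 ± 0.17), Msx2 (0.37 ± 0.18) and Gata3 (-0.042 ± 0.13), which also act in the follicle, did not pass. Shh, made by growing follicles, was not well above background on at least 3 arrays. These 4 lists were drawn up with earlier results of these arrays known.

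**Figure D5:**
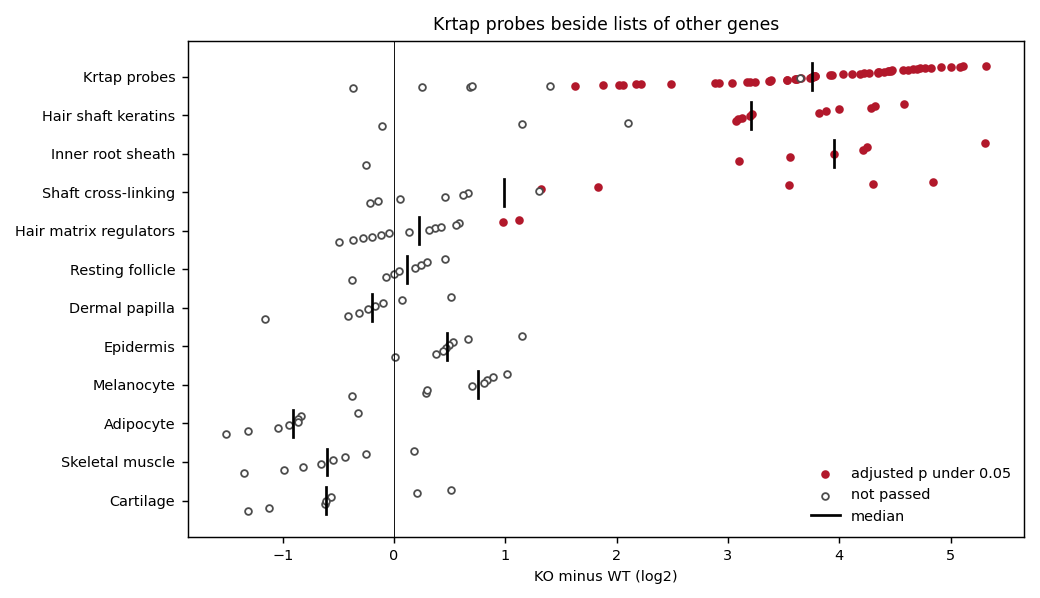
KO minus WT difference in log2 signal (x axis) of the 62 Krtap probes and of the genes of 11 other lists (rows), with 1 point per probe or gene, filled where the adjusted p was under 0.05, and a vertical bar at each list's median. Krtap probes, hair shaft keratins and inner root sheath keratins lie mostly between 3 and 5, while the regulators, the resting follicle and the dermal papilla lie around 0 and the adipocyte, muscle and cartilage markers lie mostly below it.

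Markers of other parts of the follicle and of the ear were set beside these values, all in the same limma fit. Over all 29602 kept probes, 16.1% were higher and 10.8% lower at an unadjusted p under 0.05, and 46.8% had a difference below 0. Of the 8 markers of the resting follicle, 0 passed and 1 was higher at an unadjusted p under 0.05. Their median was 0.12, and their mean level ranged from 1.55 to 1.75 for the WT mice and from 1.69 to 1.87 for the KO mice. Of the 8 dermal papilla markers 0 passed and 1 was lower at an unadjusted p under 0.05, with a median of -0.20. The epidermal markers had mean levels from 4.98 to 5.28 in WT and from 5.36 to 5.83 in KO, and 0 of 8 passed, with 5 higher at an unadjusted p under 0.05. Adipocyte markers, of which 8 of 8 had a difference below 0, ranged in mean level from 1.99 to 3.22 in WT and from 1.35 to 2.23 in KO. Muscle markers, 7 of 8 below 0, ranged from 3.42 to 4.35 in WT and from 2.66 to 3.72 in KO. Cartilage markers, 5 of 7 below 0, ranged from -0.66 to -0.60 in WT and from -1.22 to -1.02 in KO. In these 3 lists 0 members passed, and 4 adipocyte, 3 muscle and 5 cartilage markers were lower at an unadjusted p under 0.05. Markers of melanocytes, which sit in the hair matrix as well, had a median of 0.76, and 0 of 8 passed, with 1 higher and 1 lower at an unadjusted p under 0.05. Within slide 1 the melanocyte median was -0.028. The mean level of these markers was -1.79, -1.20 and -0.56 in KO 1, 2 and 7, and ranged from -1.91 to -1.65 in WT. Of 7 neutrophil markers 3 rose (2 with slide as a block) and 4 did not pass. Their median was 0.73, or 0.54 within slide 1, and their differences ranged from 0.15 to 4.71. The mean level of the list ranged from -1.93 to -1.56 in WT and from -0.13 to 0.47 in KO. In the fibroblast list the median was 0.35, and 5 of 8 genes had a difference above 0. At an unadjusted p under 0.05, 3 of the 8 were higher and 1 was lower. The 1 gene of this list that fell was Dpt (-1.19), which encodes dermatopontin. It passed in 1 of the 6 fits without 1 mouse and not with slide as a block (adjusted p = 0.41). Of 7 T cell markers 0 passed and 3 were higher at an unadjusted p under 0.05, with a median of 0.44. The part of tissue makeup in the Krtap result was not tested.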

How the data were processed

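Total RNA from ear skin of 6 mice was measured on 6 Cy3 arrays. RNA was extracted with Qiagen RNeasy kits, per the labels' protocols. The deposited scanner files give each spot's processed signal as an intensity, written by Agilent Feature Extraction (version 10.7.3.1), with probe positions on mm9, per the file headers. The deposited matrix holds the same intensity for all 43340 features, within a relative tolerance of 1e-05.

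Outlier spots (170 to 249 per array) were left out, and a probe's remaining spots were averaged. Of 39429 probes, 40 had no usable spot. Values were log2 of the deposited intensity minus the array's 75th percentile. A probe counted as well above background on an array where at least 50% of its usable spots were so by the scanner's call. Probes met on at least 3 arrays were kept. The groups were compared with limma (version 3.58.1 in R 4.3.3; lmFit, eBayes, two-sided, no covariate), with Benjamini-Hochberg adjustment over all 29602 kept probes and 4 residual degrees of freedom. The script was tested on simulated data. List genes were read from the kept probe with the highest mean. The number of arrays limits the precision.

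Symbols came from RefSeq (GRCm38.p6, names and promoters only): 60 members matched by accession, 2 by symbol, and 2 kept the array's name. Named with every array's values were, per type and chromosome, the 3 largest and 3 smallest differences and the highest mean. Further named were members that did not pass, were lower in KO, were at background in a group or failed the rule, and genes whose probes disagreed. In other lists up to 4 genes with the smallest p were to be named, and any further list gene was picked with its values in view. The members and lists were chosen with earlier results of these data known.

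Alternatives tried were quantile normalization, normexp background (offset 50), scaling by the median or by the percentile of probes detected on all 6 arrays, no filter, a filter on all 6 arrays, 1 probe per gene, the matrix values, slide or replicate number as a block, an intensity trend, an adjusted p under 0.10 and each mouse left out. Figures used matplotlib 3.10.9 with pandas 2.3.3 and numpy 2.4.6 in Python 3.11.15.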

Additional observations from a re-analysis of the deposited data

How the results depend on the processing

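The Krtap result was recomputed over the 62 probes, of which 56 rose with a median difference of 3.76. Under every alternative run 0 of them fell. Over the 2 background and 4 scaling settings, the filters and the intensity trend, between 52 (no filter) and 58 rose. With slide as a block 41 did, with a median of 4.22. In a new fit with 1 probe per gene, which leaves 50 Krtap genes in place of the 62 probes, 46 rose. Leaving out 1 mouse, between 43 and 57 rose, with medians from 3.51 to 4.03. Krtap3-2 turned from -0.37 to 0.25 with slide as a block, where its adjusted p was 0.92. WT and KO mice share the replicate numbers 1 and 2, but their deviations correlated at 0.10 and 0.052, so the numbers do not show a pairing. With a replicate block, which leaves 1 residual degree of freedom, the median was 4.26 and 0 of the 62 passed in limma, while 59 had an unadjusted p under 0.05, and of all 29602 probes 0 passed and 5643 had such a p. Under that block 0 hair shaft keratins, 0 hair matrix regulators, 0 shaft cross-linking genes and 0 inner root sheath genes passed, and the inner root sheath median was 4.57. With slide as a block 0 regulators (median 0.070), 3 cross-linking genes (median 0.78) and 3 inner root sheath genes passed, and with quantile normalization 1 regulator did. Leaving out 1 mouse gave 8 to 13 hair shaft keratins, 0 to 1 regulators with medians from 0.086 to 0.30, 4 to 6 cross-linking genes and 5 to 6 inner root sheath genes. Over all probes, 520 rose and 0.361% fell, against 991 and 162 with normexp, 441 and 174 with the array median, 304 and 30 with no filter, 183 and 10 with slide as a block, 1835 and 615 at an adjusted p under 0.10, and 208 to 892 and 18 to 343 without 1 mouse. The cause of these shifts was not tested. With 3 mice per group and KO 2 and KO 7 alone on their slide, slide and group are partly confounded, and the slide block rests on KO 1 alone.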

Other observations

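Krtap19-9b, a glycine-tyrosine gene of chromosome 16, is named AY026312 on the array and so did not meet the rule on gene names. It was noticed after the values were seen. Its first probe gave -4.36, -2.21 and -3.30 in WT 1, 2 and 3 against 1.06, 1.41 and 0.64 in KO 1, 2 and 7. All KO arrays were above all WT arrays, with a difference of 4.32 ± 0.52 (SE, limma adjusted p = 0.012). Its other probe gave -6.15, -4.14 and -4.95 in the WT mice and -0.53, -0.56 and -1.29 in the KO mice, with a difference of 4.29 ± 0.50 (limma adjusted p = 0.010). Within slide 1 the differences were 4.35 and 4.55.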
